A study of Mus musculus with 6 samples.

Results

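The genes described here encode complex I of the respiratory chain and the proteins that assemble it, in mouse Th17 cultures grown with oligomycin or with the vehicle DMSO. They are all rows of the expression table whose gene symbol starts with Nduf, 41 of 10041 rows, of which 37 carry the name of a subunit and 4 that of an assembly factor (Ndufaf). Naive CD4 T cells were cultured for 48 h on plate-bound anti-CD3e (10 µg/ml) and anti-CD28 (1 µg/ml) with the cytokines IL-23 (10 ng/ml), IL-6 (20 ng/ml) and TGF-β1 (2.5 ng/ml). The 3 oligomycin cultures received 2.5 ng/ml of oligomycin, an inhibitor of the mitochondrial ATP synthase, and the 3 DMSO cultures received the vehicle. The labels give neither the mouse strain nor its age, and they do not say whether the cultures of a group came from separate animals, so the p-values measure only the spread between these libraries. The comparison addresses how the transcript levels of complex I genes in oligomycin-treated cultures differ from those in vehicle cultures.

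Complex I oxidizes NADH, passes the electrons through a flavin and a chain of iron-sulfur clusters to ubiquinone, and pumps protons across the inner mitochondrial membrane. Its matrix arm holds the NADH-oxidizing N module and the ubiquinone-reducing Q module, and its membrane arm holds the proton pumps, whose core subunits are encoded in mitochondrial DNA and are not analysed here. Around the core sit many accessory subunits, all encoded in the nucleus, which stabilize the complex. The ATP synthase uses the proton gradient that complexes I, III and IV build, so oligomycin acts on a later step than the complex described here.

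Expression was given as FPKM, in which fragment counts are divided by transcript length and by library size, so that levels of different genes can be compared per length. The sequencing depth is unknown, and the library medians ran from 13.8 to 14.7 FPKM. Replicate numbers are those of the table's columns. The T cell genes Cd3e, Cd3d, Cd3g and Cd4 summed to 459 to 578 FPKM with oligomycin and to 405 to 514 FPKM with DMSO. The Th17 cytokine gene Il17a stood at 10.8 to 15.4 FPKM with oligomycin and at 230.4 to 261 FPKM with DMSO. Il17f, a related cytokine gene, stood at 227 to 377 FPKM with oligomycin and at 1354 to 1609 FPKM with DMSO. The Th17 cell receptor genes Il23r and Ccr6 stood at 0.383 to 0.517 FPKM and 3.17 to 5.33 FPKM with oligomycin, against 3.54 to 7.996 FPKM and 16.1 to 24.7 FPKM with DMSO. The part of this lower Th17 marker level in the results on complex I was not tested. Of the B cell markers 0 of 5 had a row. Of the myeloid markers 1 of 6 had one, Cd68, at 2.39 to 5.07 FPKM with oligomycin and 1.08 to 2.07 FPKM with DMSO. Of the CD8 T and NK cell markers 2 of 5 had a row, summing to 8.84 to 26.8 FPKM with oligomycin and to 15.4 to 37.4 FPKM with DMSO, and the part of such cells in the results was not tested.

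Most complex I transcripts stood slightly lower with oligomycin, but few passed the adjusted p threshold given below. A pair of subunit genes passed it in the other direction. Ndufb8, Ndufv3 and Ndufa4 fell, with group means 1.52-fold, 1.62-fold and 1.49-fold lower, while Ndufa6 and Ndufb4 rose, with means 1.46-fold and 1.62-fold higher (n = 3 libraries each). The other 36 genes, all 4 assembly factors among them, were not called by limma on log2(FPKM + 1) at an adjusted p of 0.05 over all 9986 genes tested. All 41 genes passed the filter on low values. The 5 called genes are 12.2% of the members, 2 higher and 3 lower, whereas 30.2% of all tested genes were called, 14.0% higher and 16.1% lower. The median log2 change was -0.24 over the 37 subunit rows and -0.15 over the 4 assembly factors, against -0.0044 over all tested genes, and 34 of 41 members (82.9%) had a change below 0, against 50.4% of all tested genes. After quantile normalization the median of the subunit rows was -0.05 and that of all tested genes 0.03, 8 members changed sign, and 3 subunit genes were higher and 2 lower. In bulk RNA, fewer cells of a type and less RNA per cell cannot be told apart.

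**Figure D1:**
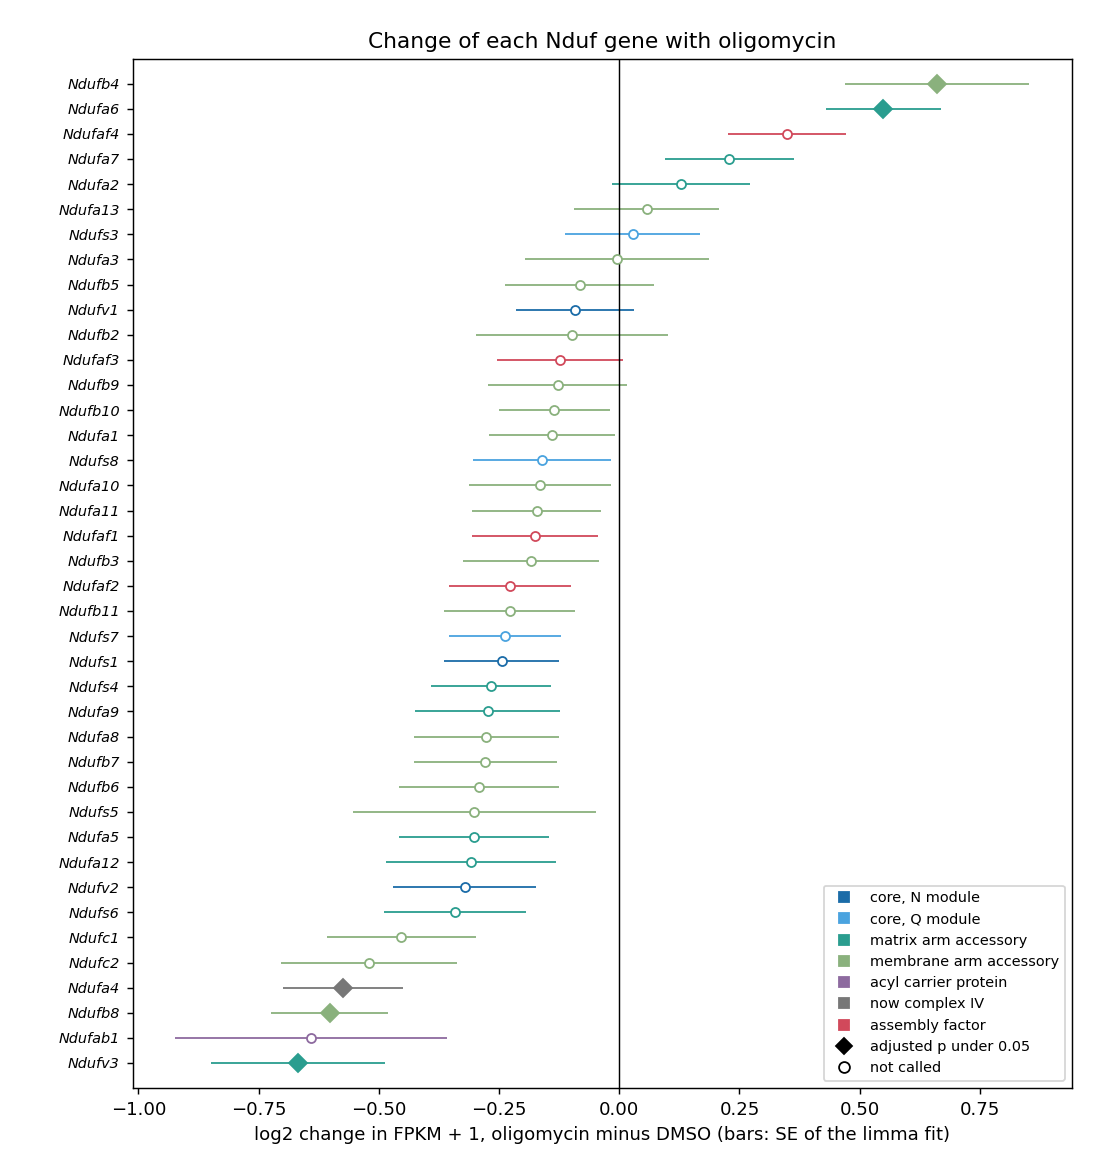
Log2 change of 40 Nduf genes, oligomycin minus DMSO, on the scale of log2(FPKM + 1), with bars for the SE of the limma fit and colours for the role of the gene. Filled diamonds mark the 5 genes with an adjusted p under 0.05, Ndufb4 and Ndufa6 on the right and Ndufa4, Ndufb8 and Ndufv3 on the left, and 33 of the 40 points lie left of 0.

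Ndufb8 encodes an accessory subunit of the membrane arm that is lost when complex I fails to assemble and is therefore often used as a marker of the complex. It stood at 156, 133 and 149 FPKM in the oligomycin libraries and at 232, 226 and 208 FPKM in the DMSO libraries. Every oligomycin library lay below every DMSO library, and the change was -0.60 on the log2 scale (SE 0.12, limma adjusted p = 0.0078). The row lies on the minus strand of chromosome 19, 44550254 to 44555415 (GRCm38). The gene body overlaps that of a further annotated gene on the same strand, Gm20538, so reads of the overlap may belong to either, although no other transcript matched that of Ndufb8 at 95% identity or more over at least 200 bases.

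Ndufv3, an accessory subunit bound to the flavoprotein part of the N module, stood at 165, 167 and 146 FPKM with oligomycin and at 222, 335 and 219 FPKM with DMSO. The groups did not overlap, and DMSO replicate 2 stood far above the other DMSO libraries. The change was -0.67 (SE 0.18, limma adjusted p = 0.025). It was not called without DMSO replicate 2 (log2 change -0.47, adjusted p = 0.058) or oligomycin replicate 3 (-0.61, adjusted p = 0.082), nor after quantile normalization (-0.46, adjusted p = 0.069).

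Ndufa4 carries the name of a complex I subunit, but its protein is now assigned to complex IV, cytochrome c oxidase. It stood at 239, 209.8 and 232 FPKM with oligomycin and at 340.2, 354 and 320.3 FPKM with DMSO, again without overlap. The change was -0.57 (SE 0.12, limma adjusted p = 0.00997). Leaving Ndufa4 out, 4 of 36 subunit genes were called (11.1%), 2 higher and 2 lower. Ndufb8 and Ndufa4 were called in all 14 alternatives tried, the omission of each library included.

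Ndufa6 encodes a matrix-arm subunit of the LYR protein family that holds the mitochondrial acyl carrier protein on the complex. It had 198, 204 and 217 FPKM in the oligomycin libraries, against 148, 147 and 128 FPKM in the DMSO libraries. The groups did not overlap, and the change was 0.55 (SE 0.12, limma adjusted p = 0.010). Without DMSO replicate 3 it was 0.48 and not called (adjusted p = 0.0597). The row spans chromosome 15, 82350139 to 82354291, on the minus strand.

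Ndufb4, an accessory subunit of the distal membrane arm, was far less abundant, at 19.0, 13.8 and 18.4 FPKM with oligomycin and at 11.3, 7.75 and 12.6 FPKM with DMSO. The lowest oligomycin value lay just above the highest DMSO value. The change was 0.66 (SE 0.19, limma adjusted p = 0.032). The call was lost without oligomycin replicate 1 or 3 (adjusted p = 0.074 and 0.097) or DMSO replicate 1 or 2 (adjusted p = 0.060 and 0.086). GENCODE M21 lists a pseudogene whose transcript matches that of Ndufb4 at 100% identity over 390 bases, so reads of the copy and the gene may not have been told apart and this value is uncertain.

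Ndufb8 and Ndufa6 were both abundant and moved in opposite directions, and their ratio within a library does not change when that library is multiplied by a factor. Ndufb8 over Ndufa6 was 0.787, 0.653 and 0.688 in the oligomycin libraries and 1.57, 1.54 and 1.62 in the DMSO libraries. In oligomycin cultures Ndufa6 was thus the more abundant transcript of the pair per length, and in DMSO cultures Ndufb8 was. This pair was chosen after its values were seen, and the ratio shows unequal change only.

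**Figure D2:**
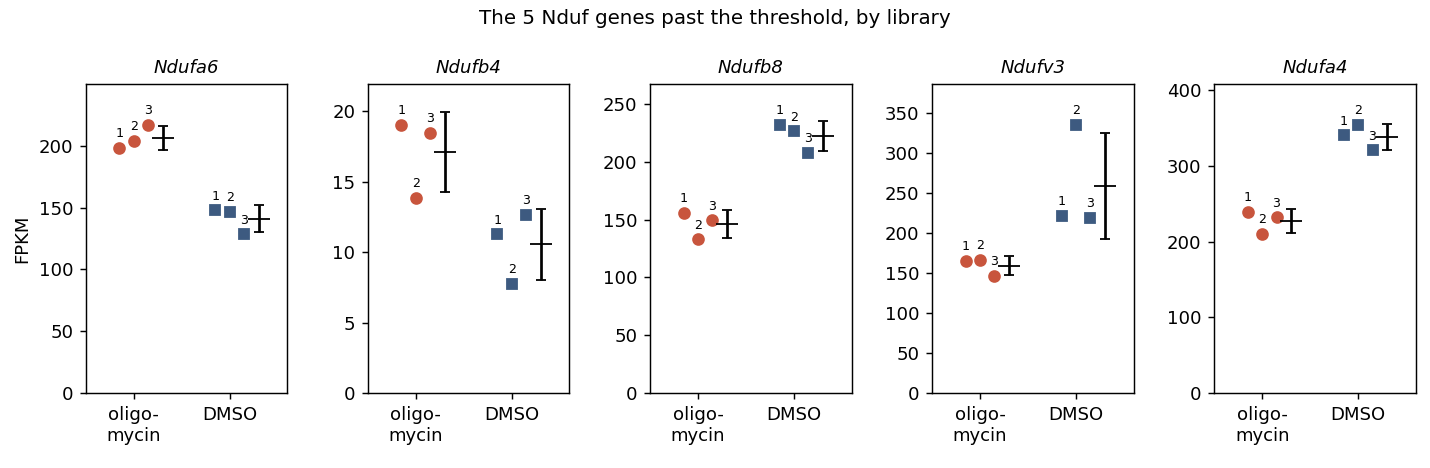
FPKM of the 5 Nduf genes with an adjusted p under 0.05 in each library (numbers are the column replicates), with the mean and SD of 3 libraries per group to the right of the points. Each axis starts at 0, and in each panel the 3 oligomycin points and the 3 DMSO points do not overlap.

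Promoters are shown for the 5 called genes because members that moved in opposite directions can be compared there by eye. Each is the stretch of 250 bases that ends just before the gene's start in RefSeq (GRCm38.p6), written 5′ to 3′ on the gene's strand. Capitals mark matches, on either strand, to motifs of factors known to act on nuclear respiratory genes or in the stress response: NRF1 (GCGCA, any base, then GCGC), GABP (CCGGAAG), YY1 (AAGATGGCG), ERR alpha (AAGGTCA), the cyclic AMP response element (TGACGTCA) and ATF4 (TGATGCAA). No printed matches overlap each other.
Ndufa6, chr15:82354292-82354541, minus strand: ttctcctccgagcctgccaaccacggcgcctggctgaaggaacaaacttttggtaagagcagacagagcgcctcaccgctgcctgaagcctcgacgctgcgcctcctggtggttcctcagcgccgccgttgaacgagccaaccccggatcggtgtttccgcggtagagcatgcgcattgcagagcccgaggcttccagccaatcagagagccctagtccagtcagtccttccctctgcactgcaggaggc
Ndufb4, chr16:37654369-37654618, minus strand: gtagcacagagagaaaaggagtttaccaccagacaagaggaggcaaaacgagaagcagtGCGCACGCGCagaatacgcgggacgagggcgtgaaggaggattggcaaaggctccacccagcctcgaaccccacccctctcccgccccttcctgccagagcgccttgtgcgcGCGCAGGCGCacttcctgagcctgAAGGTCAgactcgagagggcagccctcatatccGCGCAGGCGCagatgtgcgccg
Ndufb8, chr19:44555443-44555692, minus strand: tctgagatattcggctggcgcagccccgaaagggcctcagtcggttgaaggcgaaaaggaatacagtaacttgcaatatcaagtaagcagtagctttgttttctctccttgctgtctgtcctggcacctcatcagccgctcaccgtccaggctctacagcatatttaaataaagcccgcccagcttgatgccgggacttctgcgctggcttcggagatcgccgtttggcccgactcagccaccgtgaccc
Ndufv3, chr17:31519865-31520114, plus strand: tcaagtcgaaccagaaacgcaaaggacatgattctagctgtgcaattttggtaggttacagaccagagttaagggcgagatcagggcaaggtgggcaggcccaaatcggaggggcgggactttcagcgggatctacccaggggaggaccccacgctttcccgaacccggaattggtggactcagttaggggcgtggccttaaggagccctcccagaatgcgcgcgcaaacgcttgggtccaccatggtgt
Ndufa4, chr6:11907451-11907700, minus strand: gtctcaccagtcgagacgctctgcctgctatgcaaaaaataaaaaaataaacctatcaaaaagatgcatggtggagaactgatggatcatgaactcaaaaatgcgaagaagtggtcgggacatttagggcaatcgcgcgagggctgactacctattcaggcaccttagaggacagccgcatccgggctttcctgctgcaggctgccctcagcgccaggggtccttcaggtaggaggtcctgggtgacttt

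In Ndufb4, which rose, the capitals are 3 NRF1 matches that begin 191, 79 and 22 bases before the start and 1 ERR alpha match that begins 55 bases before it. In Ndufa6, which also rose, 1 NRF1 match begins 24 bases after the start, inside these 30 bases on the minus strand of chr15:82354249-82354278, with the match in capitals.
Ndufa6, bases after the start: ccgtggcaccGCGCGTGCGCacgctgaagg
The windows of Ndufb8, Ndufv3 and Ndufa4, which fell, held no match to any of the 6 motifs, counting also the 50 bases after the start that are not printed. Such a match describes the letters only, and its absence says only that those letters are not in the window.

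Over the 37 members with a promoter in the RefSeq table, windows of 300 bases, 250 before and 50 after the start, were searched in the same way. For each member only the record whose start lay nearest that of its locus was used. The shares over all promoters count every record in the table, so the sets set side by side are unlike. NRF1 letters occurred in 8 of 37 (21.6%), against 4.6% of all 32851 promoters in the table. Besides Ndufa6 and Ndufb4, those 8 were Ndufa5, Ndufa8, Ndufa11, Ndufs5, Ndufs6 and Ndufaf4. YY1 letters occurred in 5 (13.5%, against 1.4%), namely Ndufa9, Ndufc1, Ndufs4, Ndufs6 and Ndufs7. GABP letters also occurred in 5 (13.5%, against 8.9%), ERR alpha letters in 3 (8.1%, against 4.7%), the cyclic AMP element in 3 (8.1%, against 1.8%), and ATF4 letters in 0 of 37 (against 0.9%). The 6 NRF1-bearing genes that were not called had changes between -0.34 (Ndufs6) and 0.35 (Ndufaf4), so these letters were found in genes that stood higher and in genes that stood lower with oligomycin.

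The 7 nuclear core subunits carry the redox chain itself, and 0 of them were called by limma. At an unadjusted p under 0.05 there were 1 lower and 0 higher, a threshold that 22.2% of all tested genes passed as lower and 20.6% as higher. In the N module, Ndufv1, which binds NADH and the flavin, had 110.5, 90.4 and 90.3 FPKM with oligomycin and 104, 106 and 99.5 FPKM with DMSO (log2 change -0.09, limma adjusted p = 0.59). Ndufv2, an iron-sulfur subunit beside it, had 108, 74.3 and 92.4 FPKM with oligomycin and 112, 109 and 119 FPKM with DMSO (-0.32, adjusted p = 0.13). The values of Ndufv1 overlapped between the groups, while those of Ndufv2 lay just apart. Ndufs1, the largest subunit of the complex and a carrier of several iron-sulfur clusters, had 48.3, 41 and 51.5 FPKM with oligomycin and 56.6, 54.1 and 55.9 FPKM with DMSO (-0.24, adjusted p = 0.15), also without overlap.

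In the Q module, Ndufs7, which lines the ubiquinone site, had 105, 89.8 and 90.1 FPKM with oligomycin and 114, 114 and 108 FPKM with DMSO (-0.24, limma adjusted p = 0.15), without overlap. Its row carries a locus of 672333 bases on chromosome 10 that 27 rows of the table share, so its boundaries are not those of the gene. Ndufs8, a further carrier of iron-sulfur clusters, had 64.5, 54.5 and 45.3 FPKM with oligomycin and 60.6, 64.1 and 57.5 FPKM with DMSO (-0.16, adjusted p = 0.42). Ndufs3, the scaffold of the module, was the least abundant core transcript, with 36.5, 26.1 and 29.9 FPKM with oligomycin and 31.9, 29.8 and 28.2 FPKM with DMSO (0.03, adjusted p = 0.89). Ndufs8 and Ndufs3 overlapped between the groups.

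Of the 9 accessory subunits of the matrix arm, Ndufa6 rose, Ndufv3 fell and 7 were not called, with a group median of -0.27. Beside Ndufa6, Ndufa7 and Ndufa2 had the largest changes above 0 among uncalled subunits. Ndufa7 had 237, 192 and 205 FPKM with oligomycin and 172, 198 and 170.5 FPKM with DMSO (log2 change 0.23, limma adjusted p = 0.22). It was called after quantile normalization (0.43, adjusted p = 0.014). Ndufa2 had 209, 206 and 179 FPKM with oligomycin and 171, 212 and 163 FPKM with DMSO (0.13, adjusted p = 0.51), with overlapping groups. The other 5, Ndufs6, Ndufs4, Ndufa12, Ndufa5 and Ndufa9, had changes between -0.34 and -0.27 with adjusted p between 0.11 and 0.21, and in all 5 the groups overlapped through oligomycin replicate 1.

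Of the 19 accessory subunits of the membrane arm, Ndufb4 rose, Ndufb8 fell and 17 were not called, with a group median of -0.17. The uncalled genes with the largest negative log2 changes were Ndufc2 and Ndufc1, small subunits that sit together in this arm. Ndufc2 had 188, 122 and 170.2 FPKM with oligomycin and 260.2, 204 and 218 FPKM with DMSO (-0.52, SE 0.18, limma adjusted p = 0.061). Ndufc1 had 73.1, 52.5 and 71.7 FPKM with oligomycin and 96.0, 80.01 and 93.1 FPKM with DMSO (-0.45, SE 0.15, adjusted p = 0.056). Both had groups that did not overlap, and both lay just outside the threshold. Some alternative fits called both, in the order Ndufc2 and Ndufc1. These were the fits without oligomycin replicate 1 (adjusted p = 0.029 and 0.038) and without rows that share a locus (0.046 and 0.045). The fit with the column number as a replicate block also called them (0.020 and 0.019). The other alternatives did not. The remaining 15 had changes between -0.30 (Ndufs5) and 0.06 (Ndufa13). Ndufa3, a small membrane subunit, was the most abundant member, with 485, 454 and 360.3 FPKM with oligomycin and 369, 546 and 397 FPKM with DMSO, and its change was -0.0048 (adjusted p = 0.99). Ndufb9, the other LYR protein of the complex, stood at 142 to 173 FPKM with oligomycin and 148 to 191 FPKM with DMSO (-0.13, adjusted p = 0.52).

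Ndufab1, the mitochondrial acyl carrier protein that both LYR subunits bind, was the least abundant member. It had 3.91, 2.60 and 1.59 FPKM in the oligomycin libraries and 4.19, 3.28 and 6.81 FPKM in the DMSO libraries. Oligomycin replicate 1 lay inside the DMSO range, and the change of -0.64 had the largest SE of all members (0.28, limma adjusted p = 0.12). GENCODE M21 lists 2 pseudogenes that match the longest Ndufab1 transcript at up to 99.8% identity over up to 469 bases. Reads of the copies and the gene may not have been told apart, so the level of Ndufab1 and the span given next are uncertain. Between Ndufab1 and Ndufa3 the DMSO means of the subunit rows spanned 92.0-fold, with a median of 112 FPKM, and the oligomycin median was 95.1 FPKM. The median over all tested genes was 14.4 FPKM with oligomycin and 14.5 FPKM with DMSO.

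**Figure D3:**
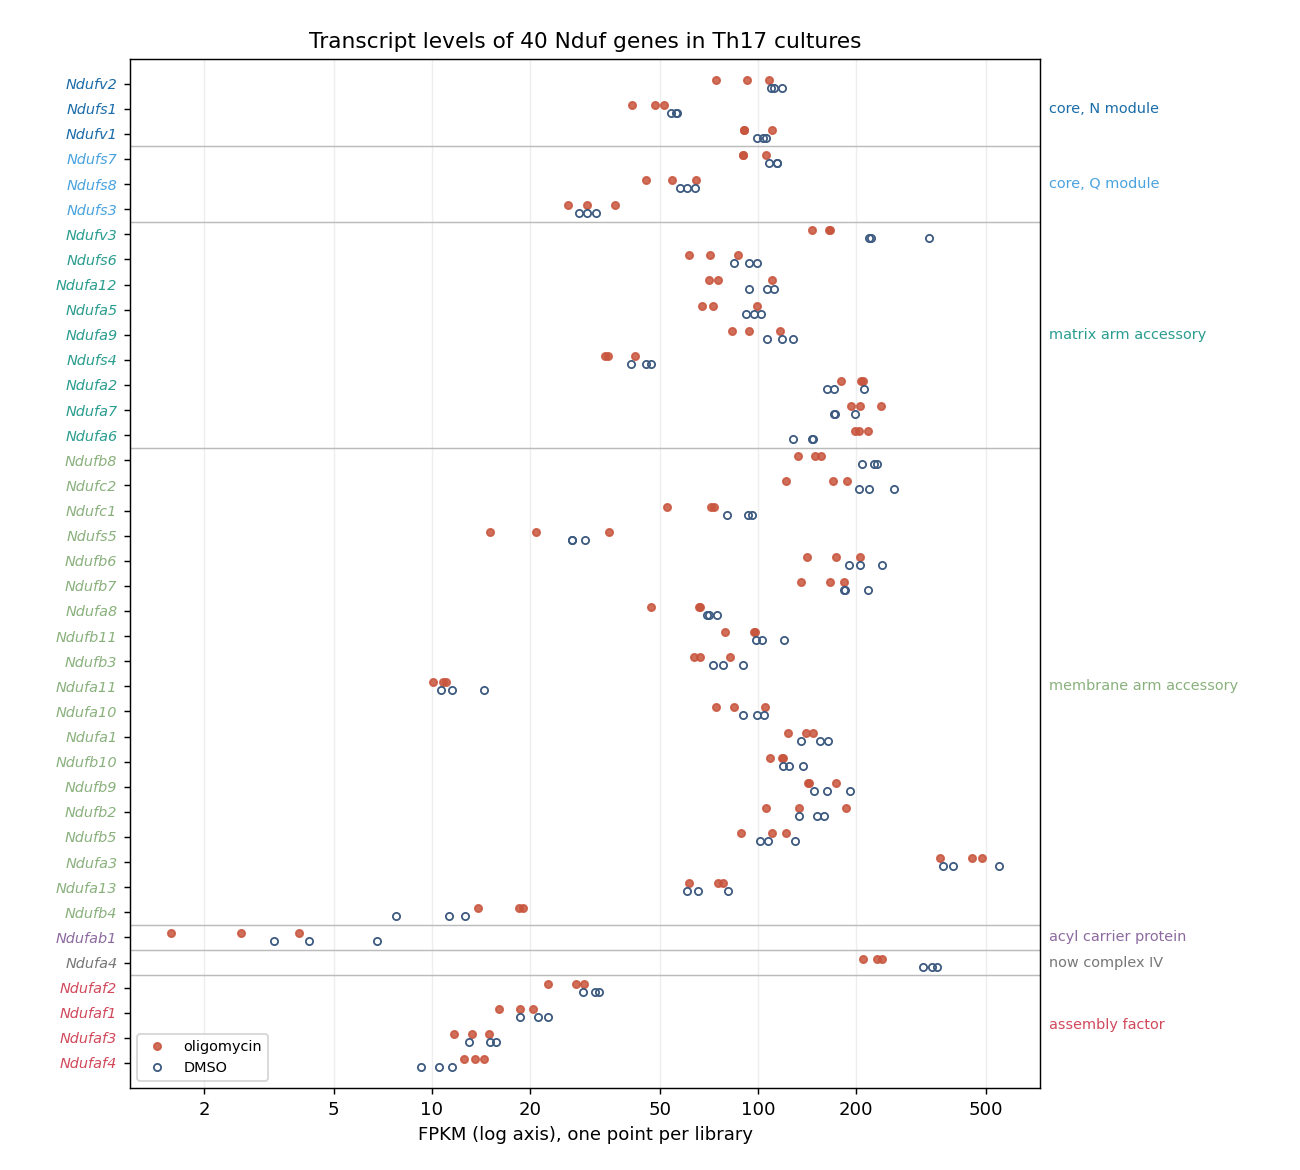
FPKM of 40 Nduf genes in the 3 oligomycin libraries (filled) and the 3 DMSO libraries (open) on a log axis, with genes grouped by role and, within a role, ordered by their log2 change. Ndufa3 (360.3 to 546 FPKM) is at the high end and Ndufab1 (1.59 to 6.81 FPKM) at the low end, and the 4 assembly factors lie between 9.24 and 32.6 FPKM.

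The oligomycin libraries did not share the low levels equally. Averaged over the 37 subunit rows, the deviation of a library from the 6-library mean was, on the log2 scale, 0.10, -0.23 and -0.16 in oligomycin replicates 1, 2 and 3 and 0.11, 0.13 and 0.04 in the DMSO replicates. Oligomycin replicate 1 thus lay inside the DMSO range. It was the lowest of the 6 libraries for 0 of 41 members, while oligomycin replicate 2 was the lowest for 22 and replicate 3 for 13. Over all tested genes these 3 libraries were the lowest for 10.5%, 23.4% and 19.6%. Below the DMSO range of the same gene lay 15 of 41 members in oligomycin replicate 1, 32 in replicate 2 and 29 in replicate 3, against 34.4%, 39.0% and 42.0% of all tested genes. The members share their libraries, so these counts describe 3 libraries and not 41 separate observations.

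The count of called genes depended on that library. Without oligomycin replicate 1, 13 subunit genes were lower and 1 was higher, against 3 and 2 with all libraries. Of all 9915 genes tested in that fit, 1861 were lower and 1387 higher (32.8% called). The 13 were Ndufv3, Ndufb8 and Ndufa4 together with Ndufv2 of the core, Ndufs4, Ndufs6, Ndufa5, Ndufa9 and Ndufa12 of the matrix arm, Ndufs5, Ndufc1 and Ndufc2 of the membrane arm, and Ndufab1. Their log2 changes in that fit ran from -0.36 (Ndufs4) to -0.87 (Ndufab1). Among the 13, Ndufs5 stood at 34.9 FPKM in oligomycin replicate 1 and 15.1 and 20.8 FPKM in replicates 2 and 3, against 26.8 to 29.4 FPKM with DMSO. When any other library was left out, 3 to 5 members were called, against 17.9% to 24.5% of all tested genes. Over the subunit rows oligomycin replicate 1 stood above replicates 2 and 3, so its omission lowers their oligomycin mean. Whether the cultures or the libraries differed was not tested.

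**Figure D4:**
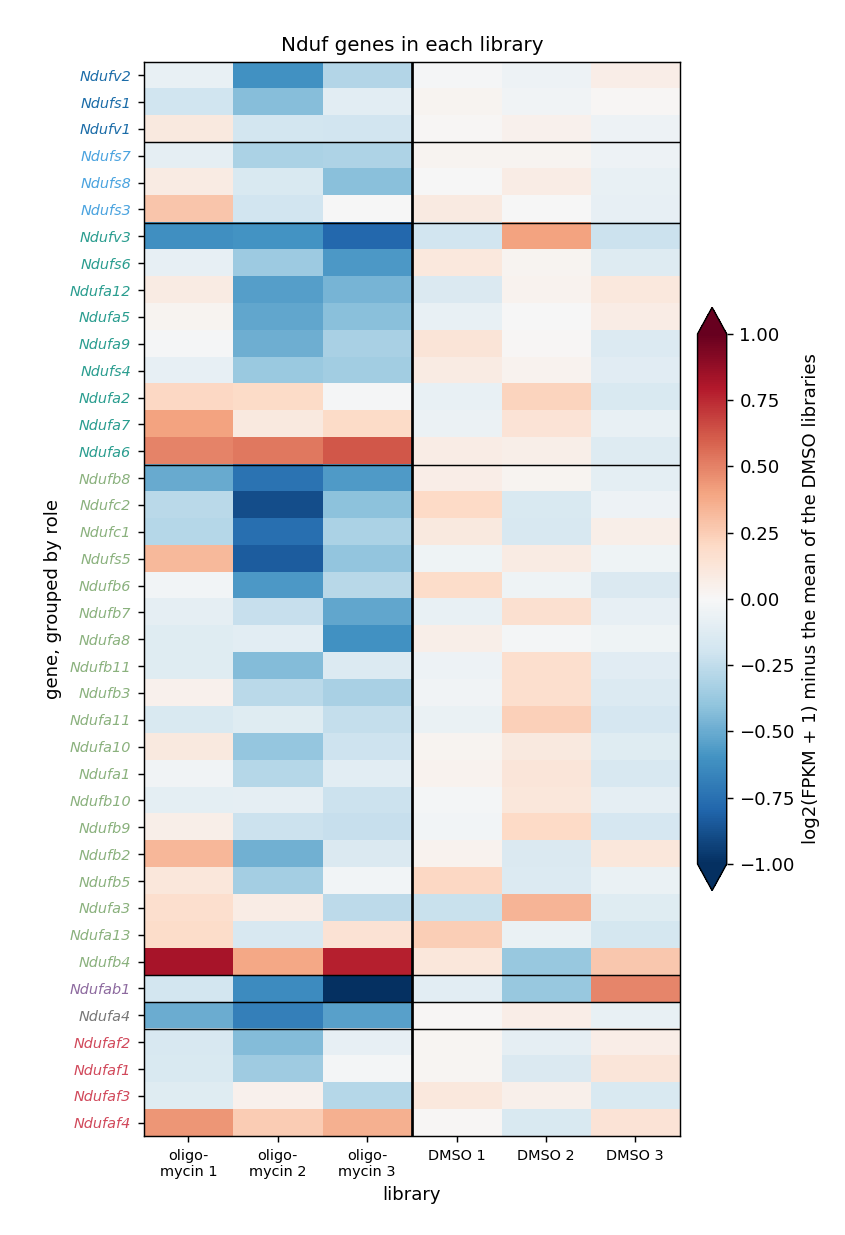
Log2(FPKM + 1) of 40 Nduf genes in each library, minus the mean of the 3 DMSO libraries, with genes grouped by role; blue is lower and red higher than that mean. Columns of oligomycin replicates 2 and 3 are mostly blue, that of replicate 1 is paler, and Ndufa6, Ndufb4, Ndufa7 and Ndufaf4 are red in all 3 oligomycin columns.

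**Figure D5:**
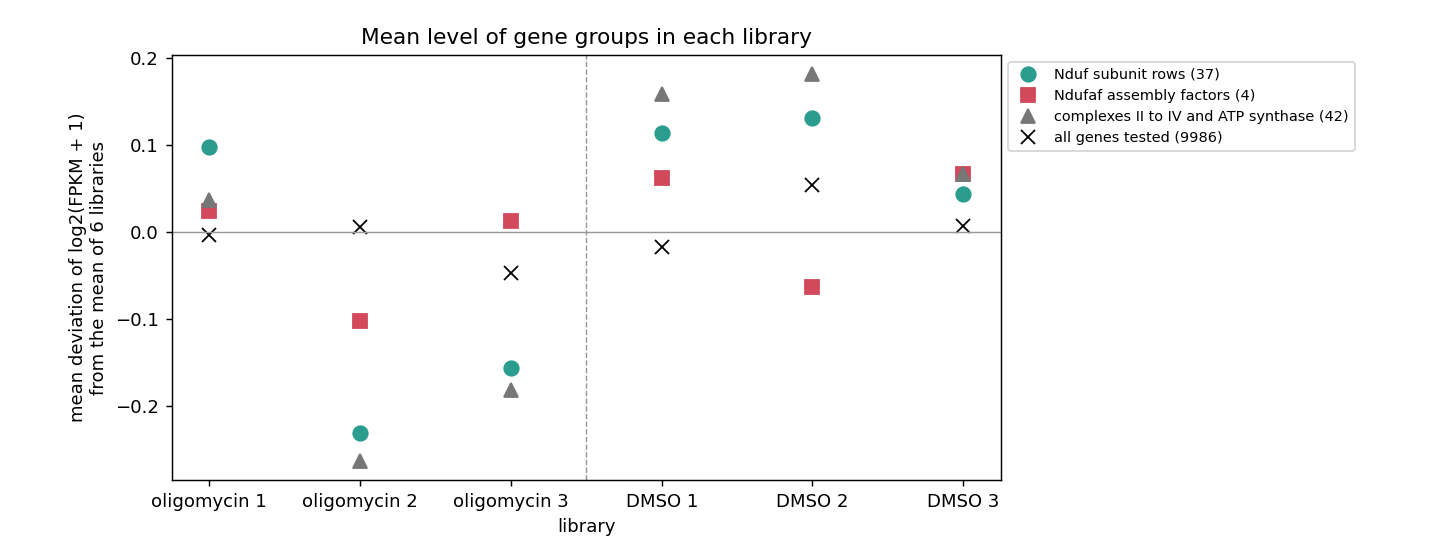
Mean log2(FPKM + 1) of 4 gene groups in each library, as the deviation from the 6-library mean. The 37 subunit rows stand at 0.10 in oligomycin replicate 1 and at -0.23 and -0.16 in replicates 2 and 3, against 0.04 to 0.13 in the DMSO libraries.

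Groups that do not overlap were found for 16 of 41 members (39.0%), 3 higher and 13 lower with oligomycin, against 47.3% of all tested genes (23.1% higher and 24.3% lower). The 3 higher were Ndufa6, Ndufb4 and Ndufaf4. Among the 13 lower were the core subunits Ndufv2, Ndufs1 and Ndufs7.

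Of the 4 assembly factors 0 were called by limma, and at an unadjusted p under 0.05 there were 1 higher and 0 lower (20.6% and 22.2% of all tested genes). Ndufaf4 had 14.5, 12.5 and 13.5 FPKM with oligomycin and 10.5, 9.24 and 11.5 FPKM with DMSO. Its groups did not overlap, and its change of 0.35 (SE 0.12, limma adjusted p = 0.063) lay just outside the threshold. Of the alternative fits, only that with the column number as a replicate block called Ndufaf4 (adjusted p = 0.047). The partner of Ndufaf4 in early assembly of the Q module, Ndufaf3, had 13.3, 14.98 and 11.7 FPKM with oligomycin and 15.7, 15.1 and 13.0 FPKM with DMSO (-0.12, adjusted p = 0.50). Ndufaf1, which helps to build the membrane arm, had 18.6, 16.01 and 20.4 FPKM with oligomycin and 21.1, 18.6 and 22.7 FPKM with DMSO (-0.18, adjusted p = 0.34). Ndufaf2, a relative of Ndufa12 that acts late in assembly of the matrix arm, had 27.6, 22.7 and 29.3 FPKM with oligomycin and 31.5, 29.1 and 32.6 FPKM with DMSO (-0.23, adjusted p = 0.21). All but Ndufaf4 overlapped between the groups.

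Of 15 further genes of complex I assembly, 12 had a row, and 1 rose and 1 fell (16.7% called, against 30.2% of all tested genes). Tmem186, which works with the membrane-arm assembly complex, rose, with 11.4, 18.1 and 13.0 FPKM with oligomycin and 8.30, 10.5 and 7.86 FPKM with DMSO (log2 change 0.60, SE 0.18, limma adjusted p = 0.037). Aifm1, a flavoprotein of the intermembrane space needed to import some subunits, fell, with 19.6, 15.04 and 16.3 FPKM with oligomycin and 26.2, 21.5 and 22.9 FPKM with DMSO (-0.45, SE 0.13, adjusted p = 0.036). The groups overlapped for neither gene, but the call of Aifm1 was lost after quantile normalization and without any library other than oligomycin replicate 1, and that of Tmem186 without oligomycin replicate 2 or 3 or DMSO replicate 1 or 3 (adjusted p between 0.053 and 0.12). The row 1810043H04Rik, named Ndufaf8 in RefSeq and therefore outside the symbol rule, had 40.4, 50.2 and 35.3 FPKM with oligomycin and 35.3, 28.95 and 28.9 FPKM with DMSO (0.41, adjusted p = 0.071), and it was called after quantile normalization (0.51, adjusted p = 0.043).

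Regulators of nuclear respiratory genes were measured in 8 of 10 cases, and 0 were called by limma. At an unadjusted p under 0.05 there were 0 higher and 0 lower, again against 20.6% and 22.2% of all tested genes. Nrf1, the gene of the factor whose letters stand in the promoters of Ndufa6 and Ndufb4, had 22.1, 26.9 and 22.2 FPKM with oligomycin and 26.7, 30.4 and 28.0 FPKM with DMSO (-0.25, adjusted p = 0.15), with overlapping groups. The changes of the 8 ranged from -0.28 to 0.27. Nrf1 and the row 1810043H04Rik were not called by the test used throughout and are named here after their values were seen.

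The other complexes of the chain and the ATP synthase were also lowest in oligomycin replicates 2 and 3. Their 42 nuclear genes (complexes II, III and IV and the ATP synthase) had mean log2 deviations from the 6-library mean of 0.04, -0.26 and -0.18 in the oligomycin replicates and 0.16, 0.18 and 0.07 in the DMSO replicates. Of all tested genes 30.2% were called, 14.0% higher and 16.1% lower. Of the 42 genes 17 were called (40.5%), 3 higher (7.1%) and 14 lower (33.3%), with a median log2 change of -0.34. Higher were Cox6a2 (3.03) and Cox7a2l (0.74), listed with complex IV by name, and the ATP synthase gene Atp5l (0.56). Cox6a2 was low, at 7.51 to 11.2 FPKM with oligomycin and 0.189 to 0.439 FPKM with DMSO. It thus passed the filter on low values through its oligomycin libraries only. Among the 14 lower, the largest changes were those of Cox7a1 (-1.92), Atp5g3 (-0.86) and Cox6b2 (-0.86). Cox6b2 was also low, at 0.451 to 0.737 FPKM with oligomycin and 1.52 to 2.32 FPKM with DMSO. It passed the filter through its DMSO libraries only. Both Cox6a2 and Cox6b2 are among the 17 called. Complex I had 4 of 36 called without Ndufa4. The difference between these shares was not tested.

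The 41 genes lie on 16 chromosomes, so that few are neighbours. Ndufs8 and Ndufv1, both core subunits, lie 94787 bases apart on chromosome 19. Besides Ndufb4 and Ndufab1, 6 members (Ndufa12, Ndufb3, Ndufb11, Ndufs3, Ndufs5 and Ndufs6) had a pseudogene transcript in GENCODE M21 that matched at 95% identity or more over at least 200 bases. In the 33 members with no such copy 4 were called (12.1%), 1 higher and 3 lower. In the 8 with a copy 1 was called (12.5%), and 30.2% of all tested genes were called. For 4 others (Ndufa13, Ndufb5, Ndufb6 and Ndufb9) the transcript overlapped that of a neighbouring gene by at least 200 bases, and reads there may be shared. For Ndufb9 the neighbour lies on the same strand; for the other 3 it lies on the opposite strand, and the strand of the libraries is not given.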

How the data were processed

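RNA-seq was measured in 6 libraries of mouse Th17 cultures, 3 with oligomycin and 3 with DMSO, and the members and gene lists were chosen with earlier results of these data known. The deposited values are FPKM, 1 per gene and library. Per the submitters' processing notes, the authors used GRCm38 (mm10) and the tools Cuffdiff 2.2.1.3, Cuffnorm 2.2.1.1, TopHat2 2.1.0 and Cufflinks 2.2.1.0, whose roles are not stated. The sources used here give no annotation, strand, filter or scaling between libraries. Depth is unknown, so no counting interval is given. The sample titles carry the numbers 17, 42 and 43 in both groups, but the columns carry numbers that are in no title, so they were mapped to groups only.

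Genes with at least 1 FPKM in at least 3 of 6 libraries (9986 of 10041 rows) were put on the scale log2(FPKM + 1). They were tested in R 4.3.3 by limma 3.58.1 with an intensity trend, 2-sided, with Benjamini-Hochberg adjustment across the tested genes, and called at an adjusted p under 0.05. The pseudocount of 1 understates the change of low genes. Errors are SD over 3 libraries or the SE of the fit, and folds are ratios of mean FPKM. The procedure was tested on simulated data. Described with values in every library were the called members, the 7 core subunits, the assembly factors, the members with the highest and lowest mean, and the 3 uncalled members with the largest change in each direction; a few further genes were added after their values were seen. Near-identical transcripts were sought with blastn 2.17.0 in GENCODE M21, and promoter letters in RefSeq promoters (GRCm38.p6). Locus starts were read as counted from 0 and are printed counted from 1. Alternatives were another pseudocount, filters, scalings and variance settings, a replicate block, the omission of rows that share a locus, and the omission of each library. Single values of 1 member and of 1 marker gene are not reported here, in the text or the figures.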

Additional observations from a re-analysis of the deposited data

How the results depend on the processing

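The 5 calls among the Nduf genes were kept with a pseudocount of 0.1, with no filter, with a filter of 5 FPKM, with libraries scaled to the same median and with no intensity trend. After quantile normalization the median log2 change of the subunit rows was -0.051, against -0.24, and of the further assembly genes 2 were higher and 0 lower. With rows that share a locus left out, 5 subunit genes were lower, Ndufc1 and Ndufc2 being added, where fewer genes were tested. With the column number as a replicate block, 6 subunit genes were lower, Ndufc1, Ndufc2 and Ndufs6 being added (adjusted p = 0.019, 0.020 and 0.049), and 1 assembly factor, Ndufaf4, was higher (adjusted p = 0.047). Deviations of same-numbered libraries correlated at 0.0556, 0.247 and 0.132, and those of differently numbered libraries at -0.216 to 0.117. Each DMSO library correlated best with the oligomycin library of its number, but oligomycin replicate 1 correlated best with DMSO replicate 3 (0.117). The column numbers are in no title, so whether they pair the cultures is not known. The main fit treats the libraries as unpaired.

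When each library was left out in turn, 780 to 1387 genes were called higher and 989 to 1861 lower, against 1403 and 1610. Among subunit rows 1 to 2 were higher and 2 to 13 lower, with medians from -0.30 to -0.16. Of the assembly factors 0 were called in any of these fits, with medians from -0.17 to -0.10. Of the further assembly genes 0 to 1 were higher and 0 to 1 lower. The cause of these shifts was not tested. The unknown depth limits what can be said of low genes such as Ndufab1.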
